A study of Columba livia with 12 samples.

Results

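miR-199 and miR-214 were followed over 4 ages in the liver of the white king, a breed of the pigeon Columba livia. Members were taken by name, as every pigeon-named entry for miR-199 or miR-214 with any letter, copy number or arm, and the rule found 4 of the 1039 mature names in the table: cli-miR-199-3p, cli-miR-199-5p, cli-miR-214-3p and cli-miR-214-5p, written below without the species prefix. Small RNA was sequenced from birds aged 1 day (1d), 14 days (14d) or 28 days (28d) and from adults aged 2 years (2y), with 3 libraries per age and 1 pigeon per library. The youngest 3 ages were squabs of mixed sex, the 2y birds were parent pigeons of either sex, and all were untreated birds of 1 breed. The sexes of the sequenced birds are not given. Replicates 2 and 3 of 1d carry that age in their titles and stage labels, by which they were grouped, but are described as coming from birds of 2 and 3 days.

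miR-199 and miR-214 are vertebrate miRNAs of mesenchymal cells. In human and mouse a miR-199 copy and miR-214 are cut from 1 long transcript that runs antisense to an intron of a dynamin gene, and the transcription factor Twist1 drives that transcript. In mammalian liver they are studied in hepatic stellate cells, the vitamin A-storing pericytes that lay down collagen once activated, and both families rise in mouse and human liver fibrosis. miR-214-3p targets the mRNA of connective tissue growth factor in mouse stellate cells, and miR-199-3p is also one of the abundant miRNAs of whole human liver. Each hairpin gives a 5p and a 3p strand, which are made in equal number and then kept or degraded separately. A stellate cell source cannot be checked in these libraries, which come from whole liver and hold no mRNA. In such bulk samples fewer cells of a type and less RNA per cell cannot be told apart.

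Total counts were 3100273 to 9393075 per library. Levels below are counts per 1000000 (CPM) of the library size scaled by TMM, a scaling based on a trimmed mean of the log ratios between libraries. The TMM factors moved with age, with 1.61 to 1.96 in the 1d libraries, 1.30 to 1.56 in those of 14d, 0.511 to 0.954 in those of 28d and 0.568 to 0.730 in adults, so changes of the members that passed are also given with scaling to the total count alone. Going from TMM to the total count shifted the median change over the whole tested table, on the log2 scale, by -0.31 for 14d against 1d, -1.01 for 28d against 14d, -1.31 for 28d against 1d, -1.30 for 2y against 1d and -1.03 for 2y against 14d. The library 28d replicate 1 stood apart from the other libraries of its age, with a TMM factor of 0.954 against 0.516 and 0.511 and 421 detected names against 323 and 303. Calls for the members that ended without it, and marker shares that moved by over 1.5 times, are given without it as well. All 4 members had enough counts to be tested, among 345 tested names.

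The 4 members differed widely in abundance. Of the 1374810 reads of the families over the 12 libraries, miR-199-3p held 79.0%, miR-199-5p 20.1%, miR-214-3p 0.822% and miR-214-5p 0.117%. By mean share of counts these names ranked 13, 33, 90 and 173 in the table, and miR-199-3p ranked 16 in the 1d livers, 20 in the 14d, 12 in the 28d and 8 in the adult livers. A mature miRNA is read whole, once per read, so these counts need no scaling to length, but ligation efficiency differs between sequences and the ratio of 1 miRNA to another is a ratio of reads. The families together made up 1.97 ± 0.257% of all counts in 1d liver, 1.59 ± 0.232% in 14d liver, 1.68 ± 0.127% in 28d liver and 2.13 ± 0.343% in adult liver (mean ± SD, n = 3 pigeons each). The ranges of this summed share overlapped between neighbouring ages, while the single members moved in different directions.

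All 4 members differed over the ages with TMM scaling, beside 45.2% of all tested miRNAs. With edgeR (quasi-likelihood test, Benjamini-Hochberg adjustment over the whole table) the adjusted p over the 4 ages was 0.000403 for miR-214-3p, 0.00224 for miR-199-3p and 0.0227 for either of the remaining strands. With the total count alone miR-214-3p (adjusted p = 0.000558) and miR-199-3p (adjusted p = 0.0381) remained past the threshold of 0.05, whereas miR-199-5p (adjusted p = 0.383) and miR-214-5p (adjusted p = 0.0674) did not.

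miR-214-3p peaked at 14d. It was at 41.4, 26.8 and 46.8 CPM in 1d replicates 1 to 3, and at 599, 301 and 224 CPM in the 3 libraries of 14d. It was at 135, 69.4 and 105 CPM at 28d and at 72.5, 69.0 and 76.4 CPM at 2y. Every 14d library lay above every library of the other ages, on either scale, and the 2y libraries lay close together. The read counts behind these levels were 202 to 337 in the 1d libraries, 2064 to 2927 in the 14d ones, 166 to 1164 in the 28d ones and 393 to 448 in adults.

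miR-214-3p rose 9.78-fold between 1d and 14d (log2 fold change 3.29 ± 0.42 SE, edgeR adjusted p = 0.000480), or 6.18-fold without 14d replicate 1. It fell between 14d and 28d (log2 fold change -1.86 ± 0.40 SE, edgeR adjusted p = 0.00619) and was 5.16-fold lower at 2y than at 14d (edgeR adjusted p = 0.00221), or 3.42-fold without 14d replicate 1. Scaled to the total count alone, the rise was 7.74-fold (adjusted p = 0.00362), the fall to 28d 7.08-fold (adjusted p = 0.00301) and the difference between 14d and 2y 10.6-fold (adjusted p = 0.00118). These 3 calls were also kept without each of the 12 libraries in turn. In the order of its levels, 1d, 2y, 28d and 14d, neither 1d and 2y (adjusted p = 0.111) nor 2y and 28d (adjusted p = 0.609) differed by the test. Among neighbours in that order only the step to 14d did. The levels at 1d and 28d, not neighbours in it, differed with TMM (2.69-fold, edgeR adjusted p = 0.0195). With the total count they did not (1.09-fold, adjusted p = 0.862). Fitted to the 6 libraries of 1d and 2y alone, the higher level at 2y passed (log2 fold change 0.80, edgeR adjusted p = 0.0248), while its direction turned with the total count (log2 fold change -0.46, adjusted p = 0.511).

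miR-199-3p, the most abundant member, ran a different course. It was at 8919, 11206 and 8601 CPM at 1d and at 6767, 7370.4 and 8151 CPM at 14d. It was at 10786, 30998 and 26897 CPM at 28d and at 26374, 28428 and 27203 CPM at 2y. The 14d libraries were the lowest of the 12 on this scale, every 2y library lay far above every squab library of 1d and 14d, and at 28d replicate 1 was near the 1d level while replicates 2 and 3 were near the adult level. Scaled to the total count the libraries were at 17441, 18124 and 13829 CPM at 1d and at 8839.9, 11508 and 10593 CPM at 14d. On that scale they were at 10286, 15988 and 13736 CPM at 28d and at 18766, 20763 and 15461 CPM at 2y. The order then ran 14d, 28d, 1d and 2y, with the adult libraries again above every 14d library but overlapping those of 1d.

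The difference of miR-199-3p that passed with either scaling was that between 14d and 2y. It was 3.68-fold higher at 2y with TMM (log2 fold change 1.88 ± 0.34 SE, edgeR adjusted p = 0.00263) and 1.78-fold with the total count (adjusted p = 0.0157). The rise between 14d and 28d (3.08-fold, edgeR adjusted p = 0.00490) and the difference between 1d and 2y (2.86-fold, edgeR adjusted p = 0.00599) passed with TMM and not with the total count, where they were 1.29-fold (adjusted p = 0.212) and 1.11-fold (adjusted p = 0.623). From 1d to 14d the log2 fold change was -0.37 ± 0.33 SE with TMM (edgeR adjusted p = 0.435) and -0.67 with the total count (adjusted p = 0.0520), and without 28d replicate 1 it was -0.81 with TMM (adjusted p = 0.0453). From 28d to 2y it was 0.26 ± 0.32 SE with TMM (adjusted p = 0.812) and 0.46 with the total count (adjusted p = 0.398).

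miR-199-5p, the less abundant strand of the same hairpin, was at 2025, 1678 and 1776 CPM at 1d. The 14d libraries were at 2982, 2624 and 5579.8 CPM, those of 28d at 6092, 4336 and 4179 CPM, and the adult ones at 5781, 3892 and 3302 CPM. The 1d libraries were the lowest with TMM, and those of the later ages overlapped one another. On the total count scale the ranges were 2714 to 3959.7 CPM for 1d, 3895 to 7252 CPM for 14d, 2134 to 5809 CPM for 28d and 1877 to 4113 CPM for adults, which all overlapped in neighbouring pairs. Against 1d, miR-199-5p was 2.04-fold higher at 14d (edgeR adjusted p = 0.0367), 2.67-fold at 28d (edgeR adjusted p = 0.00790) and 2.37-fold at 2y (edgeR adjusted p = 0.0160). None of these passed with the total count (adjusted p 0.310, 0.882 and 0.872). The 14d call ended when any 1 library other than 2y replicate 1 was left out, the 28d call without 28d replicate 1 (1.58-fold, adjusted p = 0.2001), and the 2y call without 1d replicate 2 or 2y replicate 1 (adjusted p 0.0513 and 0.0597).

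miR-214-5p had the lowest counts, 40 to 254 per library. It was at 13.1, 12.5 and 13.8 CPM in the 1d libraries and at 20.7, 21.7 and 27.6 CPM in those of 14d. The 28d libraries were at 25.8, 29.6 and 25.3 CPM and the adult ones at 23.8, 22.2 and 27.2 CPM. The 1d libraries lay below all others with TMM, and those of the later ages overlapped. With TMM it was 1.78-fold higher at 14d (edgeR adjusted p = 0.0278), 2.05-fold at 28d (edgeR adjusted p = 0.00832) and 1.86-fold at 2y (edgeR adjusted p = 0.0180) than at 1d. On the total count scale the 14d libraries were the highest (27.0, 33.8 and 35.8 CPM) and the 2y libraries were at 16.9, 16.2 and 15.4 CPM. This was a 1.99-fold lower level at 2y than at 14d (edgeR adjusted p = 0.0312). With TMM these ages did not differ by the test (log2 fold change 0.06, edgeR adjusted p = 0.869). Over all 345 tested miRNAs the median log2 fold change between them was -1.45 with the total count, and 124 were called lower. The rise of miR-214-5p from 1d to 14d did not pass with that scaling (1.42-fold, edgeR adjusted p = 0.286). Its direction from 1d to 28d and to 2y turned with it (log2 fold changes of -0.36 and -0.48, adjusted p 0.414 and 0.256). The 14d call with TMM ended when any 1 library other than 28d replicate 2 or 3 was left out, the 28d call without 28d replicate 1 (1.43-fold, adjusted p = 0.242), and the 2y call without 1d replicate 1 or 2, 28d replicate 1, or 2y replicate 1 or 3 (adjusted p 0.0503 to 0.0749).

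**Figure D1:**
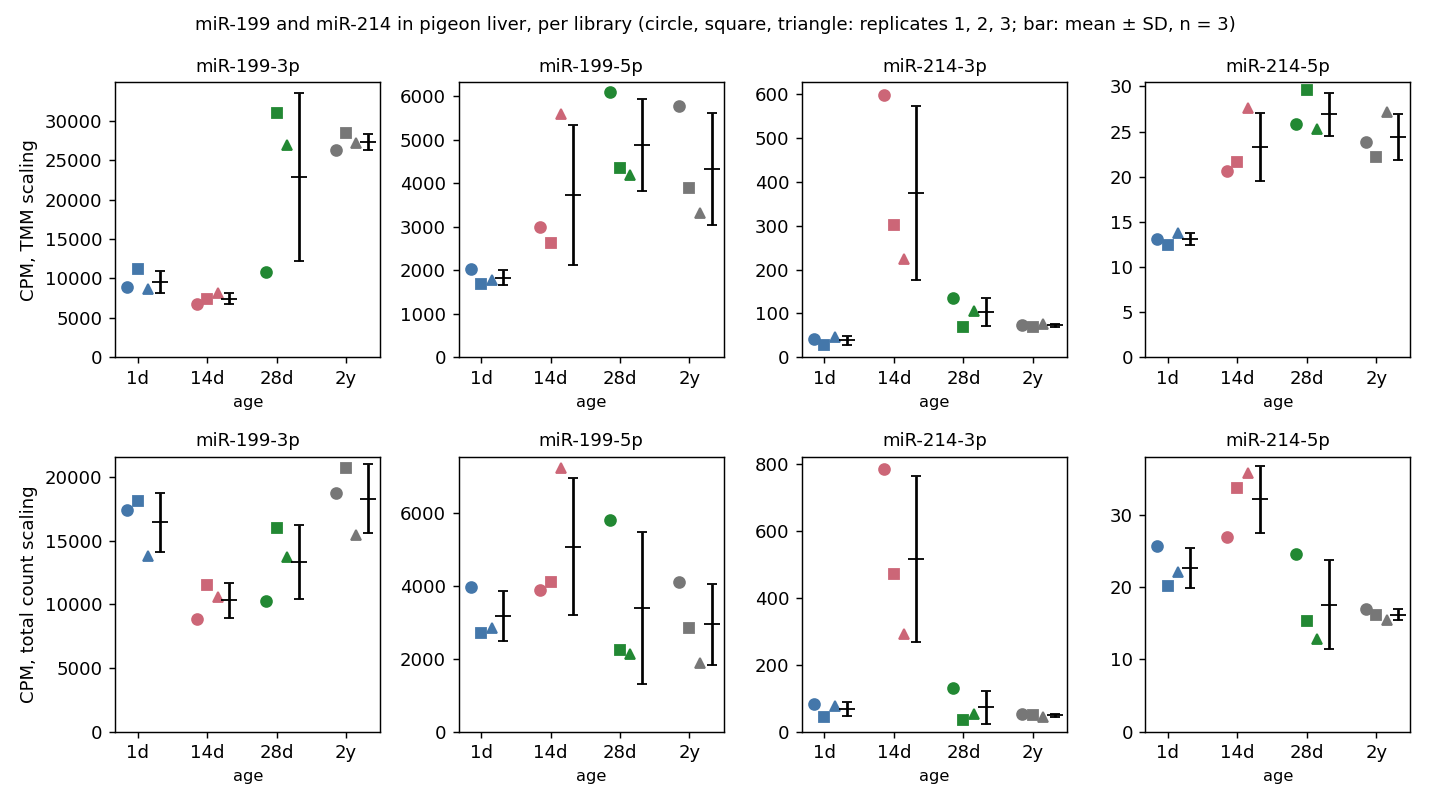
CPM of each member in each library by age, with TMM scaling in the upper row and total count scaling in the lower row; points are libraries, bars are the mean ± SD of n = 3. The 14d libraries of miR-214-3p stand above all others in either row, while the 1d libraries of miR-199-5p and miR-214-5p are the lowest in the upper row only.

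Counted by comparison, calls against 1d depended on the scaling, apart from the rise of miR-214-3p at 14d. Between 1d and 14d 3 of 4 rose and 0 fell with TMM, beside 31.0% of tested miRNAs called in either direction and 16.8% called higher. Scaled to the total count 1 rose (miR-214-3p), beside 30 of 345 tested miRNAs called higher and 48 lower. Between 14d and 28d miR-199-3p rose, miR-214-3p fell and the other strands did not pass (28.1% of tested miRNAs called). On the total count scale only the fall of miR-214-3p passed, beside 18 of 345 tested miRNAs called higher and 98 lower. Between 1d and 28d all 4 rose with TMM (29.6% called, 19.4% called higher and 10.1% lower). Without 28d replicate 1 only 1 of these 4 calls was left, that of miR-199-3p, which itself ended without 1d replicate 1 or 3, 14d replicate 1, or 28d replicate 2 or 3 (adjusted p 0.0530 to 0.0683). That of miR-214-3p also ended without 1d replicate 1 or 2 (adjusted p 0.0615 and 0.0765) and was 1.55-fold without 28d replicate 1 (adjusted p = 0.199). Scaled to the total count 0 of 4 passed for 28d against 1d, with log2 fold changes between -0.36 and 0.13. Over all 345 tested miRNAs the median was then -1.15, with 9 called higher and 89 lower.

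Between 1d and 2y 3 of 4 members were higher with TMM (27.5% of tested miRNAs called, 14.5% called higher) and 0 with the total count. On the latter scale 12 of 345 tested miRNAs were called higher and 110 lower, with a median log2 fold change of -1.26. With 1d held by replicate 1 alone, the library described as a 1-day pigeon, miR-199-3p had log2 fold changes of 1.72 (2y) and 1.44 (28d) against 1d. In that fit miR-199-5p was at 1.20 and 1.35 and miR-214-3p at 0.92 and 1.40, and the rise of miR-214-3p at 14d was 3.24. With all 12 libraries these values were 1.51 and 1.26, 1.24 and 1.415, 0.92 and 1.43, and 3.29. In the fit with 1d replicate 1 alone, that lone library is assumed to vary like the other ages. Between 14d and 2y miR-199-3p was higher and miR-214-3p lower (29.6% called), and with the total count miR-214-5p was lower as well. There 14 of 345 tested miRNAs were called higher and 124 lower with the total count. Between 28d and 2y 0 of 4 members and 0% of tested miRNAs were called by edgeR. At an unadjusted p under 0.05 edgeR called 0 members and 39 miRNAs in that comparison, and DESeq2 with adjustment called 0 members and 18 miRNAs.

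The median log2 fold change with TMM was 0.93 over the members and 0.49 over all tested miRNAs between 1d and 14d, 0.30 and -0.28 between 14d and 28d, and 1.34 and 0.15 between 1d and 28d. It was 1.08 and 0.04 between 1d and 2y, 0.14 and -0.41 between 14d and 2y, and -0.16 and -0.18 between 28d and 2y.

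Libraries of the earlier and the later age did not overlap in TMM-scaled CPM for 4 of 4 members between 1d and 14d (58.8% of tested miRNAs), for 2 between 14d and 28d (46.7%), for 3 between 1d and 28d (42.3%), for 4 between 1d and 2y (50.7%), for 2 between 14d and 2y (55.7%) and for 0 between 28d and 2y (15.4%). These shares of all tested miRNAs are large, so a lack of overlap is not a result about the members.

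**Figure D2:**
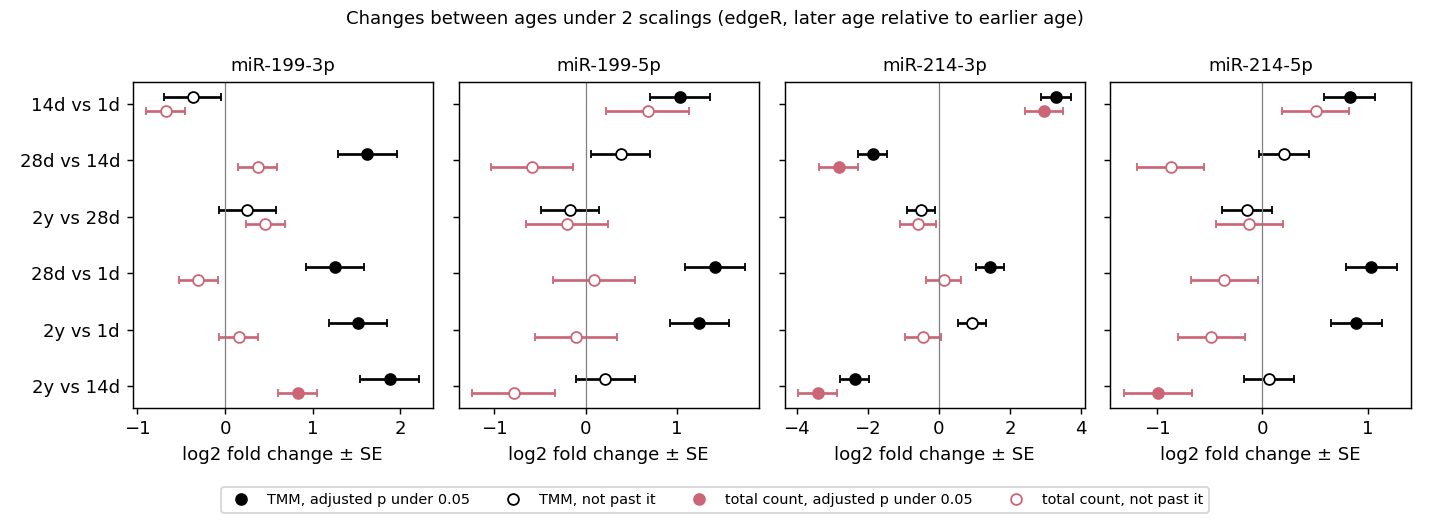
Log2 fold change ± SE (edgeR) of each member for 6 pairs of ages, later age relative to earlier age, with TMM (black) and total count scaling (red); filled points have an adjusted p under 0.05. The 3 changes of miR-214-3p that involve 14d are filled on either scale, as is the higher miR-199-3p at 2y than at 14d. With the total count the changes from 1d to 28d or 2y lie between -0.48 and 0.15, and none is filled.

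Ratios of 2 miRNAs within a library do not depend on the scaling. miR-214-3p over miR-214-5p was 3.15, 2.15 and 3.40 in the 1d libraries and 28.98, 13.9 and 8.13 in those of 14d. It was 5.22, 2.34 and 4.15 at 28d and 3.05, 3.11 and 2.81 at 2y. The 3p strand was thus the more frequent in every library, and every 14d library lay above the other 9. The ages differed in this ratio (geometric means 2.84, 14.8, 3.69 and 2.98 in the order of age; adjusted p = 0.0149 over 5 ratios, exact permutation test of the one-way F statistic, which takes differences in either direction, over 15400 partitions). The 5 ratios adjusted together include those below that were chosen after their values were seen. The unadjusted p of this ratio in that test was 0.00916.

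The strands of miR-199 gave their lowest ratios at 14d, apart from 1 library of 28d. miR-199-3p over miR-199-5p was 4.41, 6.68 and 4.84 in 1d liver and 2.27, 2.81 and 1.46 in 14d liver. It was 1.77, 7.15 and 6.44 in 28d liver and 4.56, 7.30 and 8.24 in adult liver. The 14d libraries and 28d replicate 1 were the 4 lowest of the 12. The ages did not pass the test (adjusted p = 0.0778, exact permutation test) with all libraries, and they passed without 28d replicate 1 (adjusted p = 0.0182), when the geometric mean at 28d was 6.78 in place of 4.34. No other removal of a single library made them pass. They did not pass either with libraries permuted within replicate numbers (adjusted p = 0.0920).

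miR-214-3p was also highest at 14d relative to both strands of miR-199. There were 216, 418 and 184 reads of miR-199-3p for each read of miR-214-3p at 1d, and 11.3, 24.5 and 36.4 at 14d. There were 79.97, 447 and 257 at 28d and 364, 412 and 356 at 2y. Every 14d library had fewer than any library of another age, and 28d replicate 1 came next. This ratio was chosen after its values were seen, so its test cannot decide whether the ages differed (adjusted p = 0.0149, exact permutation test over 15400 partitions). Against miR-199-5p, a read of miR-214-3p stood beside 4.98 to 24.9 reads at 14d and beside 37.9 to 79.7 reads at the other ages (adjusted p = 0.0149, exact permutation test). The shared transcript known from mammals, where miR-199 has further copies at other loci, was not examined here. Pairs of ages were not tested on these ratios.

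**Figure D3:**
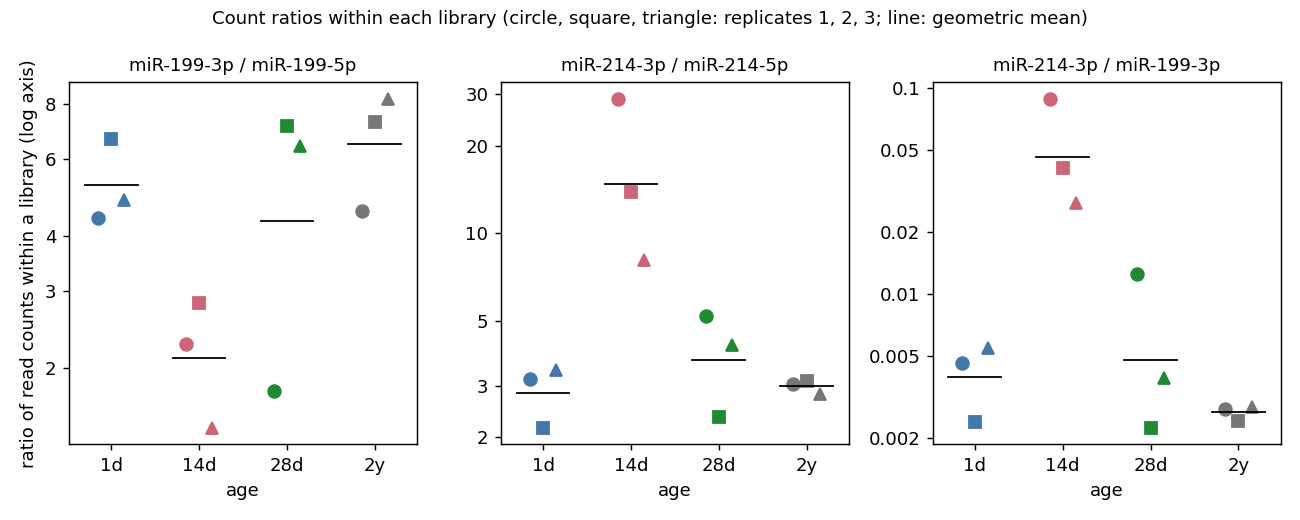
Ratios of read counts within each library by age on a log axis; points are libraries and lines are geometric means of n = 3. The 14d libraries are the highest for miR-214-3p over miR-214-5p (8.13 to 28.98) and over miR-199-3p, and for miR-199-3p over miR-199-5p they lie at 1.46 to 2.81 with 28d replicate 1 at 1.77.

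miR-143 and miR-145, 1 cluster in other vertebrates and known from smooth muscle and fibroblasts, were the nearest mesenchymal miRNAs for comparison. Their summed share was 6.91 ± 0.702% in 1d liver, 3.02 ± 0.621% in 14d liver, 9.58 ± 3.15% in 28d liver and 13.3 ± 3.45% in adult liver (n = 3 each). This share was mostly miR-143-3p and was lowest at 14d, the age at which miR-214-3p was highest. miR-145-5p went the other way, 5.12-fold higher at 14d than at 1d with TMM (edgeR adjusted p = 0.00984) and 4.18-fold with the total count, where it did not pass (adjusted p = 0.0520). The other strand, miR-145-3p, was lowest at 14d like miR-143-3p, with means of 68.0, 50.8, 775 and 542 CPM in the order of age (TMM). Its levels at 1d and 14d did not differ by the test (1.34-fold, edgeR adjusted p = 0.465). From 14d to 28d it rose 15.3-fold with TMM (edgeR adjusted p = 0.000345) and 8.61-fold with the total count (adjusted p = 0.00392). The part of miR-143 or miR-145 in the peak of miR-214-3p was not tested. There were 4.12, 4.04 and 4.33 reads of miR-143-3p per read of miR-199-3p in 1d liver and 2.51, 2.23 and 3.21 in 14d liver. There were 5.42, 6.94 and 8.42 in 28d liver and 5.17, 7.96 and 8.66 in adult liver. Every 14d library lay below those of 1d, and every 1d library below those of 28d and 2y. This ratio was chosen after its values were seen, so its test cannot decide whether the ages differed (adjusted p = 0.00649, exact permutation test over 15400 partitions).

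Among 106 other miRNAs with a mean of at least 100 CPM, the course of miR-199-3p over the 12 libraries was most like that of miR-143-3p (Pearson r = 0.98 on log2 CPM with TMM, 0.812 with the total count), followed by miR-148a-3p, a hepatocyte miRNA (0.918 and 0.700), and miR-126-3p, an endothelial miRNA (0.900 and 0.0197). By Spearman's rho with TMM the order changed: miR-148a-3p (0.930) and miR-27b-3p (0.923) came before miR-143-3p (0.916). The course of miR-199-5p was most like those of miR-130c-3p (0.940 and 0.929), miR-130a-3p (0.919 and 0.848) and miR-1388-5p (0.888 and 0.379). miR-214-3p was most like miR-2954-3p, a Z-linked miRNA that is higher in male birds (0.927 and 0.945), miR-125-5p (0.918 and 0.968) and miR-200b-3p, an epithelial miRNA (0.849 and 0.884). By Spearman's rho with TMM miR-2954-3p stayed first (0.916), followed by miR-200b-3p (0.895). There miR-125-5p (0.804) ranked 8, behind miR-23b-3p and miR-365-3p (0.888 each) among others. With TMM miR-2954-3p was at 18864, 12223 and 9718 CPM in the 14d libraries and at 9614 CPM in 28d replicate 1. The remaining libraries were at 2139 to 3313 CPM. The sexes of these birds are not given, and a part of sex in the peak of miR-214-3p was not tested. miR-214-5p was nearest to miR-130c-3p (0.921 and 0.796), miR-22-3p (0.903 and -0.07) and miR-130a-3p (0.882 and 0.951). Between the strands of miR-199 r was 0.419 with TMM and -0.51 with the total count, and between those of miR-214 it was 0.484 and 0.817. These values describe 12 libraries that fall into 4 ages and share 1 set of scaling factors. Without TMM every Pearson value given for a strand of miR-199 was lower, including that of miR-199-3p with miR-143-3p. Those of miR-130c-3p and miR-22-3p with miR-214-5p were lower as well. Among the named miRNAs the falls were largest for miR-126-3p, miR-22-3p and miR-1388-5p. The Pearson values given for miR-214-3p, and that of miR-130a-3p with miR-214-5p, were higher.

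**Figure D4:**
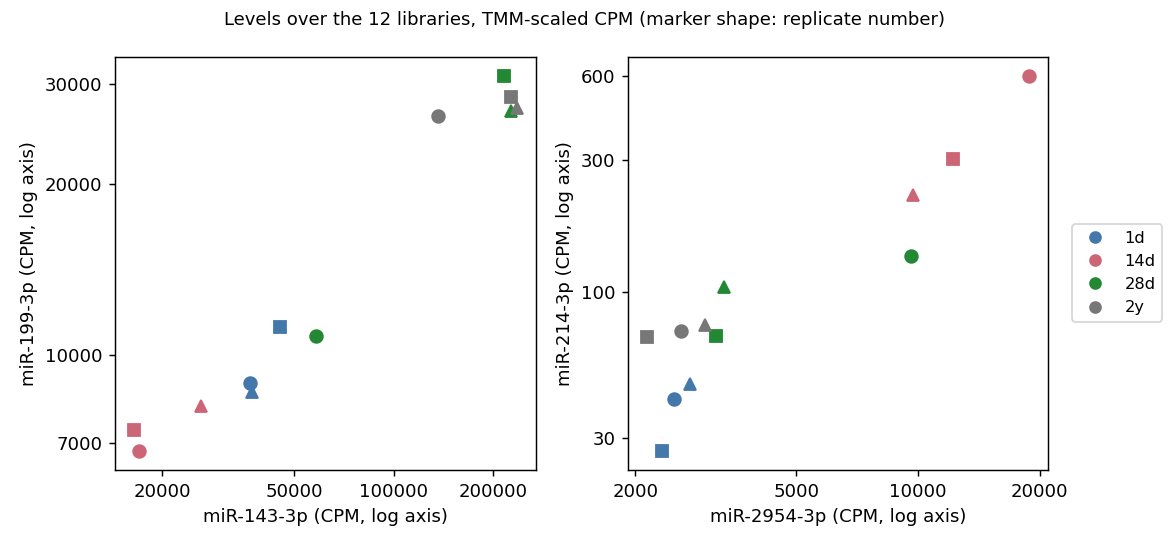
TMM-scaled CPM in the 12 libraries on log axes, miR-199-3p against miR-143-3p (left, r = 0.98) and miR-214-3p against miR-2954-3p (right, r = 0.927); colour is age and marker shape the replicate number. The 14d libraries are lowest on either axis for the first pair and highest on either axis for the second.

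Markers of other liver cells varied over the same libraries. In the order of age, the hepatocyte miRNA miR-148a held 17.8, 6.02, 20.9 and 17.3% of counts, and the endothelial miR-126 4.08, 2.44, 2.80 and 2.21%. The leukocyte miR-142 held 1.89, 0.478, 1.37 and 0.874%, the muscle miRNAs miR-1, miR-133 and miR-499 0.272, 0.366, 0.105 and 0.0378%, and the epithelial miR-200 and miR-429 with miR-141 0.0625, 0.0952, 0.0552 and 0.0402% (means of n = 3). No name of these lists was at 0 in all libraries. Without 28d replicate 1 the 28d means of miR-142 and of the epithelial list were 0.864% and 0.0346%. Every 14d library was below all libraries of the other ages for miR-148a and miR-142. The muscle mean at 14d rested on replicate 1 (0.540%), since replicates 2 and 3 (0.271 and 0.287%) were below 1d replicates 1 and 3 (0.342 and 0.373%). The epithelial share of 28d replicate 1 (0.0964%) lay within the 14d range (0.0844 to 0.109%). Their part in the peak of miR-214-3p was not tested.

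Other miRNAs linked to stellate cells and fibrosis in mammals were read beside the members, as a list of 14 tested strands of miR-21, miR-29, miR-143, miR-145, miR-221 and miR-222. With TMM 4 rose and 4 fell between 1d and 14d, beside 16.8% and 14.2% of all tested miRNAs, and 0 rose and 5 fell with the total count. Between 14d and 28d 7 rose and 1 fell (15.7% and 12.5% of all tested), and 5 and 3 with the total count. Between 1d and 28d 8 rose and 3 fell (19.4% and 10.1%), and 3 and 3 with the total count. Between 1d and 2y 8 were higher and 4 lower (14.5% and 13.0%), and 4 and 6 with the total count. Between 14d and 2y 6 were higher and 1 lower (13.3% and 16.2%), and 4 and 3 with the total count. Between 28d and 2y 0 of the 14 were called with either scaling. The shares in brackets are those with TMM. With the total count the whole table leaned to lower calls. Of 345 tested miRNAs, 30 were then called higher and 48 lower between 1d and 14d, and 18 and 98 between 14d and 28d. These counts were 9 and 89 between 1d and 28d, 12 and 110 between 1d and 2y, and 14 and 124 between 14d and 2y. The collagen-targeting miR-29a-3p rose 1.89-fold between 1d and 14d (edgeR adjusted p = 0.0382) and 3.72-fold between 14d and 28d (edgeR adjusted p = 0.00124) with TMM. Neither step passed with the total count (1.53-fold, adjusted p = 0.337, and 1.92-fold, adjusted p = 0.118). Over longer spans it was higher at the later age with either scaling. With the total count it was 2.94-fold higher at 28d than at 1d (edgeR adjusted p = 0.0215). On that scale 2y was 5.07-fold above 1d (adjusted p = 0.00284) and 3.31-fold above 14d (adjusted p = 0.0134). miR-21-5p, which is induced in many fibrotic tissues, was 2.42-fold lower at 14d than at 1d (edgeR adjusted p = 0.0348) and 5.31-fold higher at 28d than at 14d (edgeR adjusted p = 0.00165), and both passed with the total count (adjusted p 0.00367 and 0.0105). miR-222a-3p, known to rise in activated stellate cells of mammals, was at mean levels of 15496, 6537, 501 and 1613 CPM in the order of age, with a log2 fold change of -3.71 ± 0.61 SE from 14d to 28d (edgeR adjusted p = 0.00153), or -4.84 with the total count (adjusted p = 0.000231). miR-221-3p was at means of 3277, 1392, 577 and 1068 CPM. By mean TMM-scaled CPM, miR-143-3p and miR-21-5p were lowest at 14d, and miR-221-3p and miR-222a-3p highest at 1d. miR-145-5p was lowest at 1d, and its level at 14d was not told apart from those at 28d (adjusted p = 0.435) and 2y (adjusted p = 0.591).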

How the data were processed

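The authors deposited 1 table of unnormalised read counts, with mature miRNAs in rows and libraries in columns, per the file headers. Alignment used Bowtie, per the submitters' processing notes. Its version, the build, the counter and the treatment of multiply matching reads: not given in the sources used here. Per the labels, RNA of 10 to 45 nt was sequenced as 50 bp single-end reads, from 1 pigeon per library. Counts were analysed with edgeR 4.0.16 (R 4.3.3): filterByExpr, TMM, and a robust quasi-likelihood fit of 1 mean per age over all 12 libraries, with adjusted p under 0.05 as the threshold. Each SE was derived from the test, as the absolute log2 fold change divided by the square root of its F statistic. Ratios used a pseudocount of 0.5 in the test. Fits were tried on simulated data, a check of the code that does not bear on the fit to these libraries. Alternatives were total count and RLE scaling, other filters, DESeq2 1.42.0, 6-library fits, a replicate block, 1d replicate 1 alone and leaving out each library. Replicate numbers were treated as labels only. Named besides the members are the 3 miRNAs most correlated with each by Pearson's r (at least 100 CPM) and some ranked high by Spearman's rho. Marker lists of liver cell types and a list of 6 families are named as well. Of the families the most abundant strands are given, and miR-145-3p. The ratios of miR-214-3p to miR-199-3p and of miR-199-3p to miR-143-3p were chosen after their values were seen. Both entered the adjustment over the 5 ratios. Members and lists were chosen with earlier results of these data known.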

Additional observations from a re-analysis of the deposited data

How the results depend on the processing

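For 14d against 1d 3 members were called with TMM, 1 with the total count, RLE, no filter, the replicate block, only the 6 libraries compared or 1d held by replicate 1, and 1 to 2 without single libraries. For 28d against 1d the 4 calls became 2 with RLE, 0 with the total count, no filter, the 6 libraries or 1d held by replicate 1, and 1 to 4 without single libraries. For 2y against 1d 3 became 0 with the total count or 1d held by replicate 1, 1 with no filter, and 1 to 3 without single libraries. For 28d against 14d 2 became 1 with the total count. Over any age 4 became 2 with the total count, RLE, no filter or 1d held by replicate 1, and 2 to 4 without single libraries. Other member counts stayed within 1.5 times. The total count reversed miR-199-3p (-0.30, 28d against 1d), miR-199-5p (-0.58 from 14d to 28d, -0.79 from 14d to 2y, -0.11 from 1d to 2y), miR-214-3p (-0.46, 2y against 1d) and miR-214-5p (-0.87 from 14d to 28d, -0.36 from 1d to 28d, -0.99 from 14d to 2y, -0.48 from 1d to 2y), and the likeness of miR-22-3p to miR-214-5p (-0.0675). For 2y against 28d, where nothing was called, the 6 libraries alone reversed miR-199-5p (0.026) and miR-214-5p (0.066), and without single libraries the log2 fold changes ran from -0.43 to 0.44 (miR-199-5p), -0.70 to 0.21 (miR-214-3p) and -0.20 to 0.26 (miR-214-5p).

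Of all miRNAs, 107, 97, 0, 95, 102, 102 and 156 were called between 1d and 14d, 14d and 28d, 28d and 2y, 1d and 2y, 1d and 28d, 14d and 2y, and over any age. With no filter these became 48, 56, 0, 64, 55, 51 and 96, with 1d held by replicate 1 22, 61, 0, 30, 35, 72 and 86, and with the replicate block 70 for 14d against 1d. DESeq2 called 18 for 2y against 28d. With the total count the split of higher and lower calls went from 58 and 49 to 30 and 48 (14d against 1d), from 54 and 43 to 18 and 98 (28d against 14d), from 50 and 45 to 12 and 110 (2y against 1d), from 67 and 35 to 9 and 89 (28d against 1d), and from 46 and 56 to 14 and 124 (2y against 14d). Without single libraries the counts were 50 to 118, 61 to 91, 0 to 3, 71 to 107, 70 to 99, 52 to 113 and 112 to 151. The adjusted p of the ratios, without single libraries, was 0.0149 to 0.0452 (miR-214-3p to miR-199-5p), 0.0182 to 0.244 (strands of miR-199), 0.0066 to 0.0344 (strands of miR-214), 0.0066 to 0.0348 (miR-214-3p to miR-199-3p) and 0.0013 to 0.0198 (miR-199-3p to miR-143-3p).

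To look for pairing by replicate number, the mean of its age was subtracted from the log2 CPM of each tested miRNA. On these deviations, same-numbered libraries of different ages correlated at -0.13 to 0.41 over 18 pairs (mean 0.0536). Libraries differing in both age and number correlated at -0.37 to 0.295 over 36 pairs (mean -0.0277). These ranges overlap. Among the libraries of other ages, 5 of 12 libraries correlated best with one of their own number. Each age held a single library of that number among its 3. Whether the replicate numbers pair the libraries was not tested beyond these values. With the replicate block the miR-199 strands did not pass (0.0920) and the other ratios did (adjusted p 0.0260 to 0.0456). The latter include the ratios chosen after their values were seen. Those entered the same adjustment, so it cannot decide whether the ratios of miR-214-3p to miR-199-5p and to miR-214-5p pass without them. Unadjusted, these were at p = 0.0365 and p = 0.0260 (exact permutation within replicate numbers). Causes of these dependencies were not tested.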

Other observations

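A pair of names outside the rule, the 3p and 5p strands of miR-214b with the prefix of names conserved from other species, had 590 and 70 reads in all, with at most 180 and 35 in a library and 0 in 5 of the 12 libraries. Either strand was at 0 in 14d replicate 1, the library with the highest miR-214-3p.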
